A study of Arabidopsis thaliana with 4 samples.

Results

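Alpha-expansins, the EXPA family, are small secreted proteins that loosen plant cell walls at acid pH without cutting the wall polymers. They let cellulose microfibrils and the xyloglucan between them slip, so that turgor can enlarge the cell, and single members are used in particular growing cells, among them root hairs, guard cells and germinating embryos. EXPA1 is a known target of cytokinin signalling in the root. The members described here were the probe sets annotated to exactly 1 gene whose symbol begins with EXPA and a digit. There were 10 of these among 22746 probe sets tested, and each stood for a different one of the 13356 genes that have a probe set of their own. They were EXPA4, EXPA7, EXPA8, EXPA9, EXPA15, EXPA16, EXPA18, EXPA20, EXPA21 and EXPA24. The TAIR10.1 gene table holds 26 alpha-expansin genes, and the other 16, EXPA1 among them, were not analysed here as single genes.

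RNA was taken from whole Arabidopsis thaliana seedlings of accession Col-0 at an age of 10 days, grown under white light without further treatment. The wild type group held 2 seedling samples and the OsRR6ox group held 2 samples of transgenic Col-0 seedlings that over-express OsRR6, a type-A response regulator of rice that acts in the cytokinin pathway. Each sample was hybridised to 1 Affymetrix ATH1 array, on which a set of short probes near the 3′ end of a transcript gives 1 expression value per probe set. The sources used here do not give the promoter that drives OsRR6 or the number of transgenic lines. The submitters call the samples biological replicates, but nothing says that they came from separate sowings, so the p-values below cover only the spread among these 4 samples, which may be technical. In whole seedlings, fewer cells of a type and less RNA per cell cannot be told apart.

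All values are log2 expression values as deposited, so a difference of 1 is a 2-fold change. Array medians lay between 6.71 and 6.81, and values under an array's own lower quartile, which lay at 4.41 to 4.52, were taken as array background. Replicates correlated at r = 0.989 in the wild type and 0.992 in OsRR6ox across probe sets, which are not independent replicates. The array's ubiquitin control, in which a larger gap between its 3′ and 5′ probe sets goes with shorter labelled RNA, gave 1.83 and 1.77 for wild type arrays against 1.21 and 1.25 for OsRR6ox arrays. This measure of RNA quality therefore moved with genotype, and its part in the results below was not tested. Bacterial spike-in controls averaged 8.80 and 9.14 for wild type against 8.45 and 8.43 for OsRR6ox, so centring on them raised every OsRR6ox difference. The median of all probe sets moved from -0.04 as deposited to 0.49 under that centring.

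OsRR6ox and wild type were compared to ask which alpha-expansin transcripts differ in seedlings that over-express OsRR6. EXPA7, an expansin of root hair cells, rose 2.63-fold and was the single member past the threshold. EXPA18, its partner in root hairs, stood 2.15-fold higher in OsRR6ox and EXPA8 stood 2.23-fold lower, but neither passed. The other 7 members differed by -0.39 to 0.62. Thus 1 of 10 members passed and rose and 0 passed and fell (limma, Benjamini-Hochberg adjusted p under 0.05 over all probe sets). Of all probe sets 1.30% passed, 0.813% by rising and 0.488% by falling. By unadjusted p under 0.05 there were 4 members higher and 1 lower in OsRR6ox, where 6.75% and 8.23% of all probe sets met that rule.

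**Figure D1:**
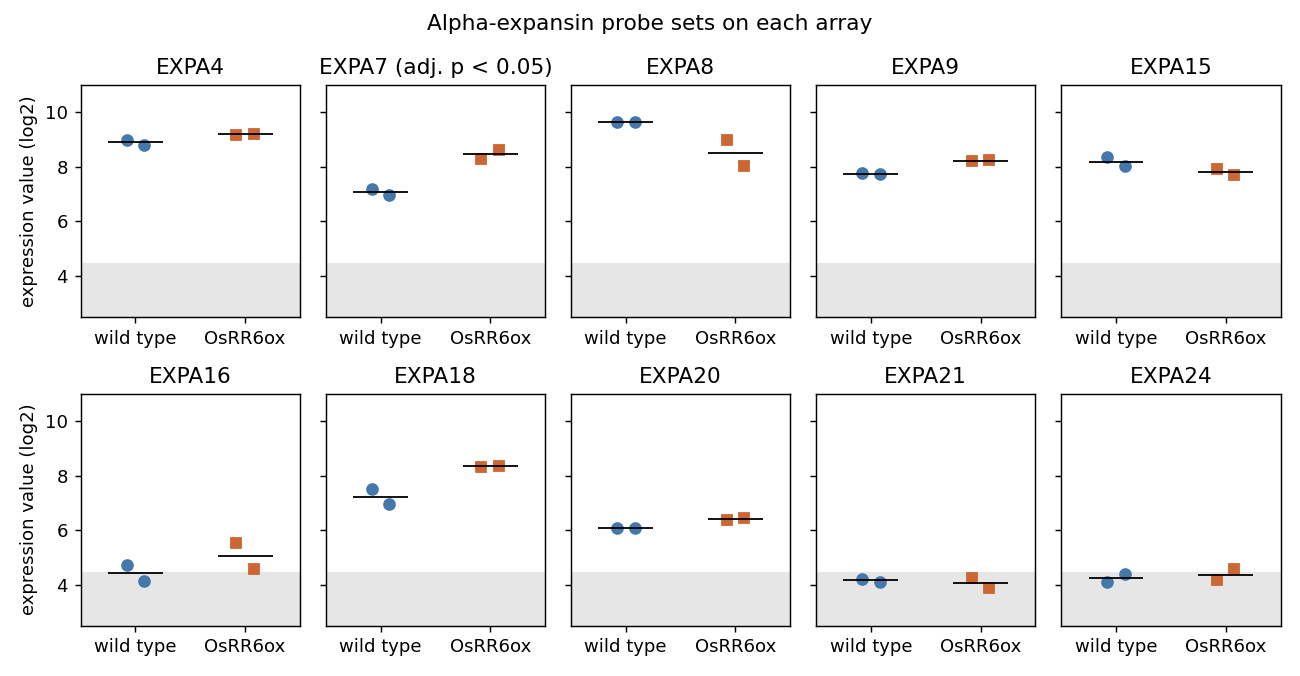
Log2 expression values (vertical axis) of the 10 alpha-expansin probe sets on the 2 wild type arrays (circles) and the 2 OsRR6ox arrays (squares), with a horizontal line at each mean. The grey band is array background, the lowest 25% of probe sets averaged over arrays. EXPA7 and EXPA18 stand higher on both OsRR6ox arrays, EXPA8 stands lower, and EXPA21 and EXPA24 lie at or near the band.

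EXPA7 (AT1G12560) and EXPA18 (AT1G62980) encode the expansins of root hairs, the tubular outgrowths of root epidermal cells through which a root takes up water and nutrients. The 2 wild type arrays gave EXPA7 values of 7.18 and 6.96, and the 2 OsRR6ox arrays 8.30 and 8.63. Both OsRR6ox arrays lay above both wild type arrays, as for 18.1% of all probe sets. The gap between genotypes was wider than the gap between replicates of either genotype, 0.22 and 0.33. The means were 7.07 ± 0.15 and 8.47 ± 0.23 (SD, n = 2 each), a difference of 1.39 with a standard error of 0.17 and a 95% interval of 0.96 to 1.83 (limma adjusted p = 0.0392). This difference was larger than those of 99.2% of all probe sets.

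The EXPA7 call depended on which arrays entered the fit, as the number of calls over all probe sets also did. Without OsRR6ox replicate 1 the difference was 1.56 (limma adjusted p = 0.128), without OsRR6ox replicate 2 it was 1.23 (limma adjusted p = 0.200), and without wild type replicate 2 it was 1.28 (limma adjusted p = 0.0565). Without wild type replicate 1 it was 1.50 and still passed (limma adjusted p = 0.0492). Its direction was the same whichever array was left out, while its side of the threshold was not.

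For EXPA18 the wild type values were 7.52 and 6.95, against OsRR6ox values of 8.32 and 8.36. The OsRR6ox arrays were nearly equal. Both lay above both wild type arrays, as for 18.1% of all probe sets. The wild type arrays were themselves 0.57 apart, a wider gap than that of 91.9% of all probe sets between those arrays. The means were 7.23 ± 0.40 and 8.34 ± 0.02 (SD, n = 2 each), a difference of 1.11 with a standard error of 0.21 and a 95% interval of 0.56 to 1.65, short of the threshold (limma adjusted p = 0.103). Without wild type replicate 1 it was 1.39 and passed (limma adjusted p = 0.0362), as it did when each array was centred on its median (limma adjusted p = 0.0497). It did not pass without wild type replicate 2, at 0.82 (limma adjusted p = 0.0941), nor without OsRR6ox replicate 1 or 2, at 1.12 and 1.09 (limma adjusted p = 0.330 and 0.406).

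The change of EXPA7 was larger than that of EXPA18 by 0.29, and the changes of EXPA7 and EXPA8 lay 2.55 apart. Differences in change between members are given as values only, since the exact two-sided permutation test of 2 arrays against 2 cannot go below p = 0.333 and so could not pass for any pair, whatever its size. Over the 4 arrays, each gene centred on its own mean, the profiles of EXPA7 and EXPA18 lay 0.217 apart (root mean square distance on the log2 scale).

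Whether the seedlings differed in root hair content cannot be read from the markers measured here. Of 10 root hair marker names listed, the 2 measured under a single gene name were EXPA7 and EXPA18 themselves. Of a longer list of 47 root hair genes 1 other was measured, XTH26, a xyloglucan endotransglucosylase gene expressed in root hairs. Its wild type values were 6.71 and 6.21 and its OsRR6ox values 7.19 and 7.66. The arrays did not overlap between genotypes for XTH26 either, as for 18.1% of all probe sets in that direction. Its difference of 0.97 did not pass (limma adjusted p = 0.168). Among markers of other organs, LEA4-5 and OLEO3, listed as seed markers, differed by -0.81 and -0.22 (limma adjusted p = 0.162 and 0.592). Both OsRR6ox arrays lay below both wild type arrays for each gene, as for 28.0% of all probe sets. The part of this in the results was not tested. The stomatal lineage genes FMA and SPCH differed by 0.02 and 0.04, and array background held every value of the shoot meristem gene CLV3 and of the anther genes SPL and AMS.

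EXPA8 (AT2G40610) had the largest negative difference among the members. Its value was 9.66 in both wild type samples, against 9.00 and 8.02 in those of OsRR6ox. The wild type arrays were equal to within 0.01, whereas the OsRR6ox arrays were 0.98 apart, a wider gap than that of 98.9% of all probe sets between those arrays. The groups did not overlap, as for 28.0% of all probe sets in that direction. The means of 9.66 ± 0.00 and 8.51 ± 0.69 (SD, n = 2 each) differed by -1.15 with a standard error of 0.33 and a 95% interval of -1.98 to -0.32 (limma adjusted p = 0.209). The size of the difference depended on OsRR6ox replicate 2, being -0.66 without it and -1.64 without OsRR6ox replicate 1, and it was lower in OsRR6ox under every setting tried.

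EXPA9 (AT5G02260), EXPA20 (AT4G38210) and EXPA4 (AT2G39700) had small, even differences. For each, both OsRR6ox arrays lay above both wild type arrays, as for 18.1% of all probe sets. EXPA9 went from wild type values of 7.76 and 7.72 to OsRR6ox values of 8.20 and 8.24, a difference of 0.48 with a 95% interval of 0.18 to 0.78 (limma adjusted p = 0.164). EXPA20 read 6.09 and 6.08 against 6.36 and 6.45, a difference of 0.32 with a 95% interval of 0.01 to 0.63 (limma adjusted p = 0.314). Replicates of both genes lay within 0.09 of each other, so their spread between replicates was smaller than their differences between genotypes. EXPA4 read 8.99 and 8.81 against 9.18 and 9.20, a difference of 0.29 with a 95% interval of -0.04 to 0.63 (limma adjusted p = 0.390). These 3 profiles were the nearest to each other of all pairs of members. EXPA4 and EXPA20 lay 0.068 apart, EXPA9 and EXPA20 0.081 apart and EXPA4 and EXPA9 0.107 apart. By this measure any genes with small differences and little spread lie near each other. EXPA20 and EXPA24, a gene near background, lay 0.19 apart, nearer than EXPA7 and EXPA18 at 0.217.

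EXPA15 (AT2G03090) was lower in OsRR6ox as deposited. Wild type samples read 8.35 and 8.04, and OsRR6ox samples 7.91 and 7.70. The groups did not overlap, as for 28.0% of all probe sets in that direction. The replicate gaps of 0.31 and 0.20 were close in size to the difference of -0.39, whose 95% interval ran from -0.81 to 0.03 (limma adjusted p = 0.365). The difference was -0.23 without wild type replicate 1 and -0.54 without wild type replicate 2. Centring on the spike-in controls turned its sign, to 0.14.

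EXPA16 (AT3G55500) varied as much between replicates as between genotypes. Wild type samples read 4.73 and 4.12 and OsRR6ox samples 5.53 and 4.57, so that the groups overlapped and 1 wild type array lay at background. The replicate gap in OsRR6ox, 0.96, was wider than that of 98.8% of all probe sets, and the gap in the wild type, 0.61, wider than that of 93.2%. Its difference of 0.62 had a 95% interval of -0.33 to 1.57 (limma adjusted p = 0.518), and ranged from 0.14 without OsRR6ox replicate 1 to 1.1 without OsRR6ox replicate 2. Without wild type replicate 1 it was 0.92 and without wild type replicate 2 it was 0.32.

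EXPA21 (AT5G39260) and EXPA24 (AT5G39310) stand at the ends of a run of 6 alpha-expansin genes that neighbour each other in the TAIR10.1 gene table. EXPA21 lay at array background on all 4 arrays, at 3.87 to 4.25, and differed by -0.11 with a 95% interval of -0.54 to 0.33. EXPA24 had wild type values of 4.11 and 4.41 and OsRR6ox values of 4.16 and 4.56, with the last array alone above background, and differed by 0.10 with a 95% interval of -0.40 to 0.60. For both genes the groups overlapped, and their signs turned when single arrays were left out. A pair of further probe sets, each assigned to 2 genes of this run, are no members. They too lay at background on all 4 arrays, at 3.50 to 3.83 and 4.01 to 4.31.

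**Figure D2:**
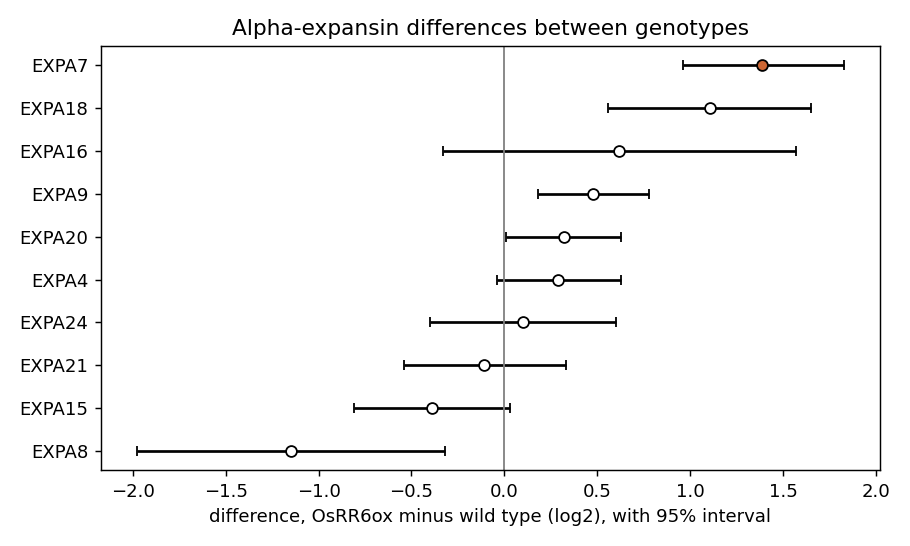
Difference between genotypes on the log2 scale (horizontal axis, OsRR6ox minus wild type) for each of the 10 alpha-expansins, with the 95% interval of the limma fit on 2 arrays a group. EXPA7, filled, is the single member past the adjusted threshold. The intervals of EXPA7, EXPA18, EXPA9 and EXPA20 lie above 0 and that of EXPA8 below it, while the other 5 hold 0. Intervals are not adjusted for the number of probe sets, and leaving out 0 is the same rule as unadjusted p under 0.05. Of all probe sets 6.75% met that rule above 0 and 8.23% below it.

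As a group, the alpha-expansins had higher means in OsRR6ox for 7 members and lower means for 3, with a median difference of 0.31 against -0.04 over all probe sets. In size, regardless of sign, the median difference was 0.43 against 0.16 over all probe sets. Arrays of the genotypes did not overlap for 7 members, as for 46.1% of all probe sets. They were higher in OsRR6ox without overlap for 5 of 10 members, against 18.1% of all probe sets, and lower for 2 of 10, against 28.0%. Differences of at least 1 in either direction were found for 3 members, EXPA7, EXPA18 and EXPA8, and for 3.10% of all probe sets. After centring on the spike-in controls 9 members were higher, all but EXPA8, and the median over members was 0.84 against 0.49 over all probe sets. Under that centring EXPA7, EXPA18, EXPA16, EXPA9, EXPA20 and EXPA4 passed, in a fit that called 3013 probe sets, 2863 of them as rises.

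**Figure D3:**
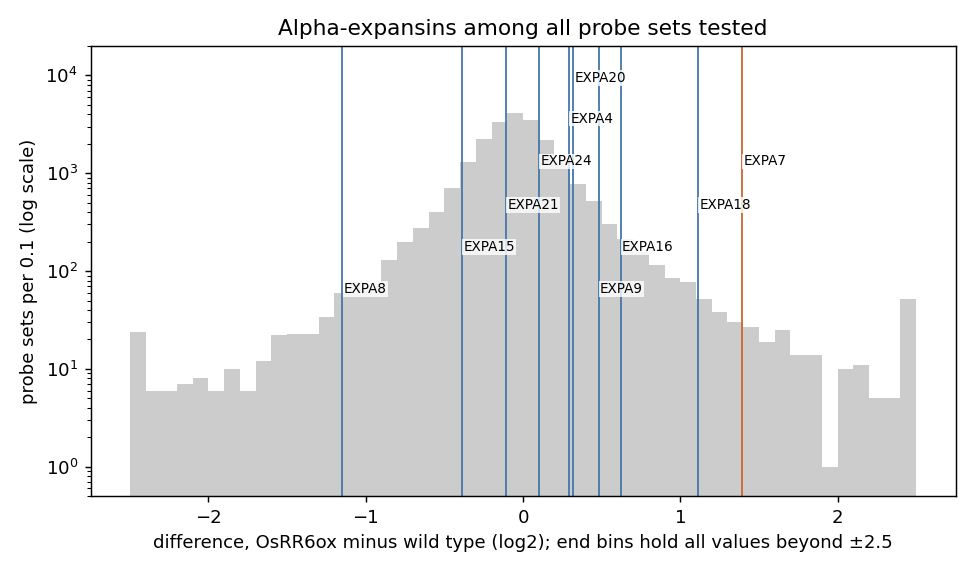
Distribution of the log2 difference between genotypes (horizontal axis, OsRR6ox minus wild type) over 22746 probe sets, as the number of probe sets per bin on a log scale, with a vertical line at each alpha-expansin. EXPA7 at 1.39 and EXPA18 at 1.11 lie in the upper tail and EXPA8 at -1.15 in the lower tail, while EXPA21 and EXPA24 lie in the bulk.

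Replicates of the alpha-expansins were spread about as widely as those of other genes in the wild type, with a median gap between arrays of 0.20 against 0.18 over all probe sets. In OsRR6ox the median gap was 0.27 against 0.15. EXPA8 and EXPA16 had the widest gaps there, and both read higher in OsRR6ox replicate 1 than in replicate 2. The next widest were those of EXPA24, at 0.40, which read higher in replicate 2, and of EXPA21, at 0.38, which read higher in replicate 1.

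By the likeness of their values over the 4 arrays, the genes nearest to EXPA7 among 1567 probe sets of a single gene with a symbol beyond its locus code were RALFL32, FHL, ATSBT5.2, JAL33 and SWEET17, at root mean square distances of 0.098, 0.122, 0.145, 0.166 and 0.175 after each gene was centred on its own mean. RALFL32 encodes a RALF-like secreted peptide, ATSBT5.2 a subtilase, JAL33 a jacalin-related lectin and SWEET17 a fructose transporter of the vacuole. RALFL32 had wild type values of 7.69 and 7.70 and OsRR6ox values of 8.91 and 9.11, and SWEET17 read 6.77 and 6.54 against 7.56 and 7.84. FHL lay at array background on both wild type arrays, at 4.09 and 3.97, and read 5.41 on both OsRR6ox arrays. RALFL32, FHL and ATSBT5.2 passed (limma adjusted p = 0.0252, 0.0186 and 0.0455), while JAL33 and SWEET17 did not (limma adjusted p = 0.133 and 0.0679). With 4 arrays, any gene with a like difference and little spread will lie near, and likeness here says nothing of shared control.

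The other expansin classes, whose products are related to alpha-expansins in sequence, were examined in the same fit. Of 10 beta-expansin and expansin-like genes 8 were measured and 0 passed, where 1.30% of all probe sets did. Of the measured genes 3 were higher and 5 lower, with a median difference of -0.43. The arrays of 5 of the 8 did not overlap and were lower in OsRR6ox, where 28.0% of all probe sets were, and 0 were higher without overlap, where 18.1% were. EXLA3, an expansin-like gene, differed by -1.07, and the beta-expansin genes EXPB2 and EXPB1 by -0.42 and -0.48 (limma adjusted p = 0.237, 0.256 and 0.311). The OsRR6ox arrays of EXLA3 lay 0.96 apart, with replicate 1 at array background. The difference between the classes was not tested.

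Genes for enzymes that act on xyloglucan, the polymer through which expansins are thought to loosen walls, gave no calls where measured. Of all probe sets 1.30% passed, so short lists such as those below can readily hold none. Among the XTH genes, whose products cut and rejoin xyloglucan, 10 of 33 were measured under a single gene name and 0 passed. Of these 5 were higher and 5 lower, with a median of 0.18. Without overlap of the arrays 2 were higher and 2 lower in OsRR6ox, where 18.1% and 28.0% of all probe sets were. XTH26 differed by 0.97, XTH29 by -0.57 and XTH16 by 0.59. XTH29 lay at array background on all arrays but wild type replicate 1. Of 40 cellulose synthase and related genes 8 were measured and 0 passed, with 6 higher and 2 lower. Without overlap 3 of the 8 were higher and 1 lower, against the same 18.1% and 28.0%. CSLC04, which encodes a synthase of the xyloglucan backbone, had wild type values of 7.11 and 7.52 and OsRR6ox values of 8.64 and 9.61. The difference was 1.81 (limma adjusted p = 0.104). CSLC12 differed by 0.51 and CSLA01 by -0.32, and array background held every value of CSLA01. By unadjusted p under 0.05 there were 3 beta-expansin and expansin-like, 3 XTH and 2 cellulose synthase and related genes, where 15.0% of all probe sets met that rule. Of the Arabidopsis type-A response regulators, 2 of 10 were measured under a single gene name and 0 passed. RR16 differed by -0.39 and ARR15 by -0.15, and ARR15 lay at background on all arrays but wild type replicate 2.

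The genes next to the members in TAIR10.1 were examined for shared differences along the chromosome. Of 20 neighbouring protein-coding genes 8 were measured as single genes and 0 passed (limma), where 1.30% of all probe sets did. Their differences ran from -0.26 to 0.75. Of the 8, 1 had an unadjusted p under 0.05, a rule that 15.0% of all probe sets met. That gene, AT2G39690 beside EXPA4, had wild type values of 4.98 and 4.85 and OsRR6ox values of 5.54 and 5.78. AT1G12570, next to EXPA7, differed by 0.07 and lay at background on every array, and the genes on either side of EXPA8, AT2G40600 and AT2G40620, differed by -0.26 and 0.11.

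**Figure D4:**
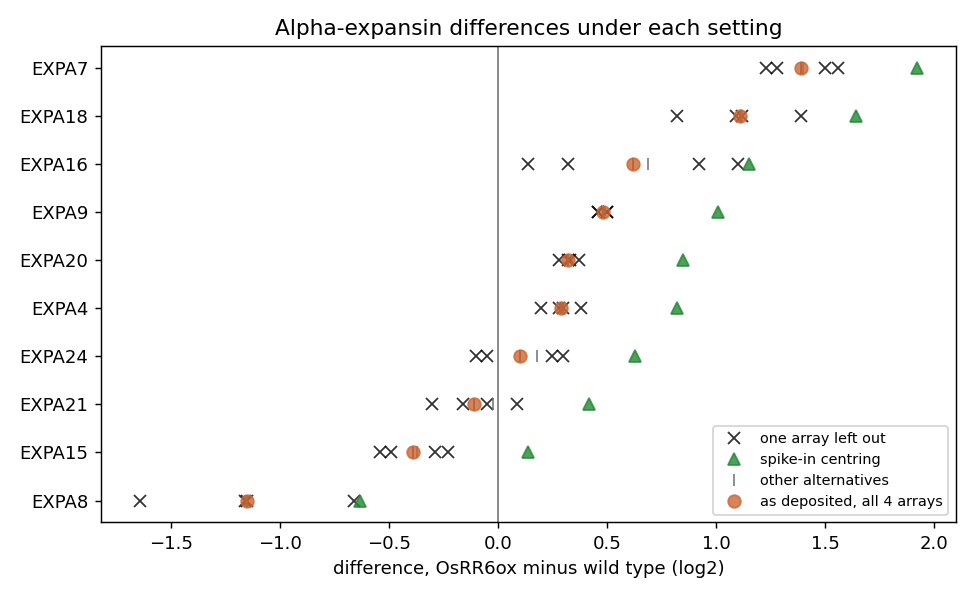
Log2 difference between genotypes (horizontal axis, OsRR6ox minus wild type) of each alpha-expansin as deposited, with 1 array left out, after spike-in centring, and under the other alternatives. EXPA7 and EXPA18 stay above 0 and EXPA8 below 0 throughout, while EXPA15, EXPA21 and EXPA24 cross 0 under at least 1 setting.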

How the data were processed

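The authors deposited log2 expression values, 22810 probe sets by 4 arrays. Per the labels' protocols, RNA was extracted with Trizol and labelled with biotin in the 3′ IVT procedure of Affymetrix. The submitters' processing notes name R 3.4.0. How background was corrected and arrays normalized is not given in the sources used. The 64 array controls were left out of the tests. Gene names came from the platform annotation, updated to TAIR10.1 through gene identifiers, with 13513 probe sets given 1 gene, 503 several and 8730 none.

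Genotypes were compared with limma 3.58.1 in R 4.3.3 (lmFit, eBayes, two-sided), adjusted by Benjamini-Hochberg over 22746 probe sets. The median residual SD was 0.145 and the prior degrees of freedom 3.17, and the number of arrays limits the precision. The fit was tested on simulated data, with independent arrays and variances drawn from its own prior. That test does not cover RNA quality that moves with genotype. The members, lists and alternatives were chosen with earlier results of these data known. All members were named, and from each list the 3 genes with the smallest p. Lists were matched by symbol, locus and synonym, and the brightest probe set stood for a gene. A gene not measured under a single gene name may still have a probe set that is shared or unnamed. Alternatives were quantile normalization, median and spike-in centring, other variance models, leaving out the dimmest 25% of probe sets, the replicate number as a block, a threshold of 0.1 and leaving out each array. No sequence of these genes was used here.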

Additional observations from a re-analysis of the deposited data

How the results depend on the processing

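Of 108 alternative values for the 10 members, 92 kept both their direction and their side of the threshold, 7 passed where the deposited values did not, 4 no longer passed and 5 changed sign. The 4 lost calls were all of EXPA7, 3 with an array left out, as given above, and 1 with the replicate number as a block. The values that changed sign were EXPA15 at 0.14 and EXPA21 at 0.42 under spike-in centring, EXPA21 at 0.09 and EXPA24 at -0.10 without OsRR6ox replicate 2, and EXPA24 at -0.05 without wild type replicate 1. With an array left out EXPA21 ranged from -0.30 to 0.09 and EXPA24 from -0.10 to 0.30. None of these passed in either fit.

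Members past the threshold numbered 2 under median centring, 6 under spike-in centring, 0 with the replicate block and 0 to 2 with an array left out, against 1 as deposited. Probe sets past it numbered 492 under median centring, 3013 under spike-in centring, 105 with the replicate block, 673 at a threshold of 0.1 and 45 to 465 with an array left out, against 296. The fit under spike-in centring gave all probe sets a common variance, so its counts are not comparable with the others. Leaving out dim probe sets removed EXPA21 and EXPA24. With an array left out, the lone array of a genotype is assumed to vary like the others.

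Same-numbered arrays of the genotypes deviated together, with a correlation of 0.259 across probe sets. The labels do not say that a number marks a shared batch and there are 2 pairs only, so the numbers were not taken as pairing the samples. With the replicate block EXPA7 differed by 1.39 with a limma adjusted p = 0.0966. Signal over background limits EXPA21, EXPA24 and, on a single wild type array, EXPA16.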
